A study of Arabidopsis thaliana with 6 samples.

Results

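The chloroplast keeps a small genome of its own, and part of that genome encodes the machinery that expresses it. The probe sets described here measure most of this machinery on the ATH1 array of Arabidopsis thaliana: plastid-encoded ribosomal proteins (rps for the small and rpl for the large subunit), the subunits of the plastid-encoded RNA polymerase (rpo), and the housekeeping genes clpP, accD and matK. Members were chosen by probe set number, with no use of measured values, which gave 28 of the 22810 probe sets on the array. The small-subunit gene rps7 is outside those numbers and is counted here among the other plastid genes (log2 change -0.31, overlapping groups). The gene table names 26 of them: 4 polymerase, 10 small-subunit, 9 large-subunit and 3 other probe sets. The 2 unnamed ones, 244979_at and 244981_at, are reported under their probe set names. The gene rps12 has 2 probe sets, and both of these and those of rpl2 and rpl23 are listed with 2 gene entries of the same symbol, so their copies were not told apart.

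The cells came from a mixotrophic culture, which photosynthesises and also takes up organic carbon. Treated cells received phytoprostane A1 (PPA1), a reactive oxylipin formed without enzymes, at 75 µM for 4 h. Control cells were given 0.5% methanol in water for 4 h, and the labels do not say whether the PPA1 cells also received methanol. Each condition had 3 independent replicates, with 1 array each, so 6 arrays were compared. The labels name no ecotype, genotype or line for the culture, and do not say what separates the replicates, so each p-value reflects the spread of these samples alone, which may be technical.

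Chloroplast genes are transcribed by a bacterial-type polymerase, whose core is encoded in the plastid by rpoA, rpoB, rpoC1 and rpoC2. Phage-type polymerases, which nuclear genes encode, transcribe plastid genes as well. In plants the phage-type enzymes transcribe the rpo genes and share the transcription of many other housekeeping genes, while photosynthesis genes depend mostly on the bacterial-type enzyme. The ribosome that translates plastid mRNAs is also of bacterial type, and its proteins are divided between the plastid and the nuclear genome. Many plastid genes are transcribed together in long RNAs that are then cut, and most plastid mRNAs carry no lasting poly(A) tail, whereas the One-Cycle labelling kit used here starts from poly(A) tails. The signals therefore describe the plastid RNA that the kit labelled.

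After PPA1, 24 of the 28 probe sets had a lower mean and 4 a higher one, and the largest differences lay among ribosomal protein genes. The median log2 change was -0.54, against -0.21 over all 22746 tested probe sets and -0.11 over the 10135 whose log2 signal averaged 6 or more. None of the 28 passed the test in either direction (limma, Benjamini-Hochberg adjusted p from 0.105 to 1.0), where 1.80% of all tested probe sets passed. At an unadjusted p under 0.05, 11 of 28 were lower (39.3%, against 14.8% of all tested) and 0 were higher. In 13 of 28 (46.4%) every PPA1 array lay below every control array, against 20.1% of all tested probe sets and 23.6% of those averaging 6 or more on the log2 scale, where the members gave 12 of 23. In 0 of 28 did every PPA1 array lie above every control array, against 10.8% of all tested. In a bulk culture, fewer plastids per cell, less RNA per plastid and a smaller share of plastid RNA labelled by the kit cannot be told apart.

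These arrays differ in scale as well. Median signals were 49.7 to 51.0 on the control arrays and 41.9 to 44.8 on the PPA1 arrays, so part of any lower signal depends on how the arrays are brought to a common level. Once the array medians were set equal, the members' median log2 change was -0.33, against 0.01 over all tested probe sets and 0.11 over those averaging 6 or more. The number of members with all PPA1 arrays below all controls was then 7 (25.0%, against 12.9% of all tested). These were rps18, rps19, rpl2, rpl23, rpl36 and both unnamed probe sets. All 28 members made up 0.250% to 0.310% of the summed signal on the control arrays and 0.147% to 0.249% on the PPA1 arrays. Quantile normalization, which gives all arrays the same distribution, left 12 members without overlap (against 16.3% of all tested) and a median log2 change of -0.50 (against -0.07).

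**Figure D1:**
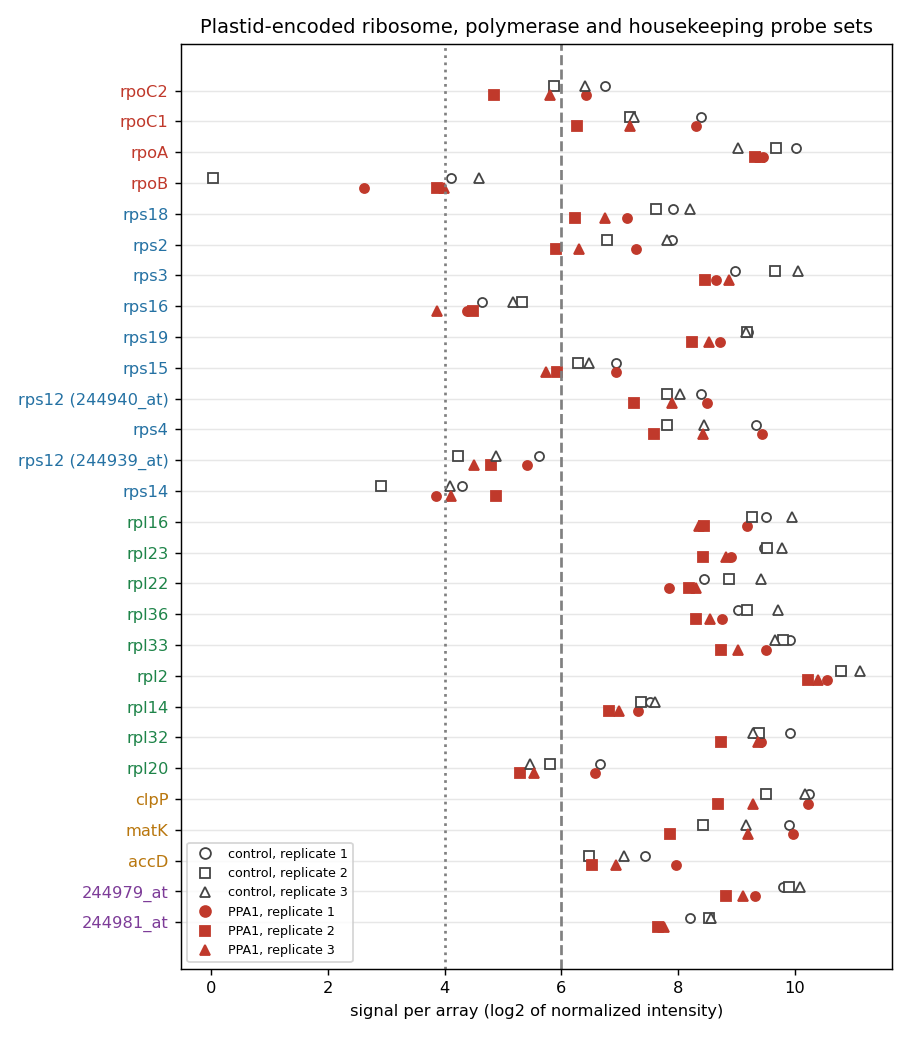
Log2 signal (horizontal axis) of each of the 28 probe sets on every array, controls as open and PPA1 as filled marks, with the mark's shape giving the replicate number. Label colours give the role, from the top polymerase, small subunit, large subunit, other and unnamed, and the vertical lines mark log2 signals of 4 and 6. The PPA1 marks of 13 probe sets, among them rps18, rps19 and rpl23, lie wholly to the left of their controls, and those of rps4, matK and accD overlap with them.

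The genes from rpl23 to rpoA follow each other on the plastid genome in an order that resembles ribosomal protein operons of bacteria, with 11 protein-coding genes in the stretch. Named members cover 9 of these, namely rpl23, rpl2, rps19, rpl22, rps3, rpl16, rpl14, rpl36 and rpoA. The planned groups of members were by role, and this stretch was not among them. In 8 of the 9 all PPA1 arrays lay below all controls (88.9%, against 20.1% of all tested), the exception being rpoA at the end of the stretch. With array medians set equal this held for 4 of the 9 (44.4%, against 12.9%). The 9 all averaged 6 or more in log2 signal. Among all tested probe sets at that level the shares were 23.6% and, with medians set equal, 14.1%. All 9, with rpoA, had log2 changes from -0.91 to -0.18, with a median of -0.77, and the 19 members outside the stretch had a median of -0.36. Whether the 2 sets differ was not tested, and neighbouring genes may share 1 RNA, so they are not independent measurements.

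At the start of this stretch, rpl23 encodes a protein that lies at the exit of the ribosome's peptide tunnel in bacteria. Its signals were 707, 738 and 875 in control replicates 1 to 3 and 480, 345 and 449 in PPA1 replicates 1 to 3. The groups were well apart, with means of 9.59 ± 0.16 and 8.72 ± 0.25 on the log2 scale (SD, n = 3 each). The log2 change was -0.87 (SE 0.23), or 1.83-fold lower (limma adjusted p = 0.106). The next gene, rpl2, encodes a protein close to the peptidyl transferase centre in bacteria. Its signals were 1766, 1769 and 2219 in controls, against 1501, 1202 and 1342 after PPA1. The groups did not overlap, and the log2 change was -0.51 (SE 0.21, limma adjusted p = 0.229).

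The controls of rps19, a small-subunit gene, were the closest to each other of any member, at 585, 582 and 570. After PPA1 its signals were 421, 301 and 370, all lower, for a log2 change of -0.68 (SE 0.21, limma adjusted p = 0.142). The gene rpl22 encodes a protein that lines the peptide tunnel in bacteria. Its signals were 347, 468 and 682 in controls, against 230, 291 and 317 after PPA1. Control replicate 1 was only a little above PPA1 replicate 3 here, and the log2 change of -0.79 had an SE of 0.32 (limma adjusted p = 0.212).

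The gene rps3 encodes a protein that in bacteria sits where mRNA enters the small subunit. Its controls were wide apart, at 500, 806 and 1066, while the PPA1 arrays gave 399, 351 and 470. The log2 change was -0.90 (SE 0.33, limma adjusted p = 0.189). For rpl16, a large-subunit gene, the controls were at 727, 612 and 990 and the PPA1 arrays at 581, 349 and 327. PPA1 replicate 1 came close to control replicate 2, and the log2 change was -0.91 (SE 0.33, limma adjusted p = 0.180).

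The smallest difference among the 8 genes of the stretch without overlap belonged to rpl14, a large-subunit gene. Its signals were 183, 165 and 195 in controls, against 158, 112 and 127 after PPA1, with a log2 change of -0.46 (SE 0.22, limma adjusted p = 0.270). The gene rpl36 encodes the smallest large-subunit protein of the plastid set. Its signals were 520, 578 and 837 in controls, against 429, 317 and 372 after PPA1, again without overlap, and its log2 change was -0.77 (SE 0.27, limma adjusted p = 0.171).

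The last gene, rpoA, encodes the alpha subunit around which the polymerase core assembles in bacteria. Its signals were 1033, 818 and 520 in controls, against 704, 636 and 679 after PPA1. The PPA1 arrays were almost level and lay inside the control range. The log2 change was -0.18 (SE 0.30, limma adjusted p = 0.752), and it became 0.04 after centring on array medians.

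Both unnamed probe sets were lower on every PPA1 array than on every control array. The signals of 244979_at were 887, 953 and 1090 in controls, against 638, 450 and 553 after PPA1, a log2 change of -0.85 (SE 0.23, limma adjusted p = 0.111). Those of 244981_at were 294, 367 and 378 in controls, against 204, 202 and 217 after PPA1. The PPA1 arrays of the latter were close together (SD 0.05 on the log2 scale), for a log2 change of -0.73 (SE 0.20, limma adjusted p = 0.117).

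**Figure D2:**
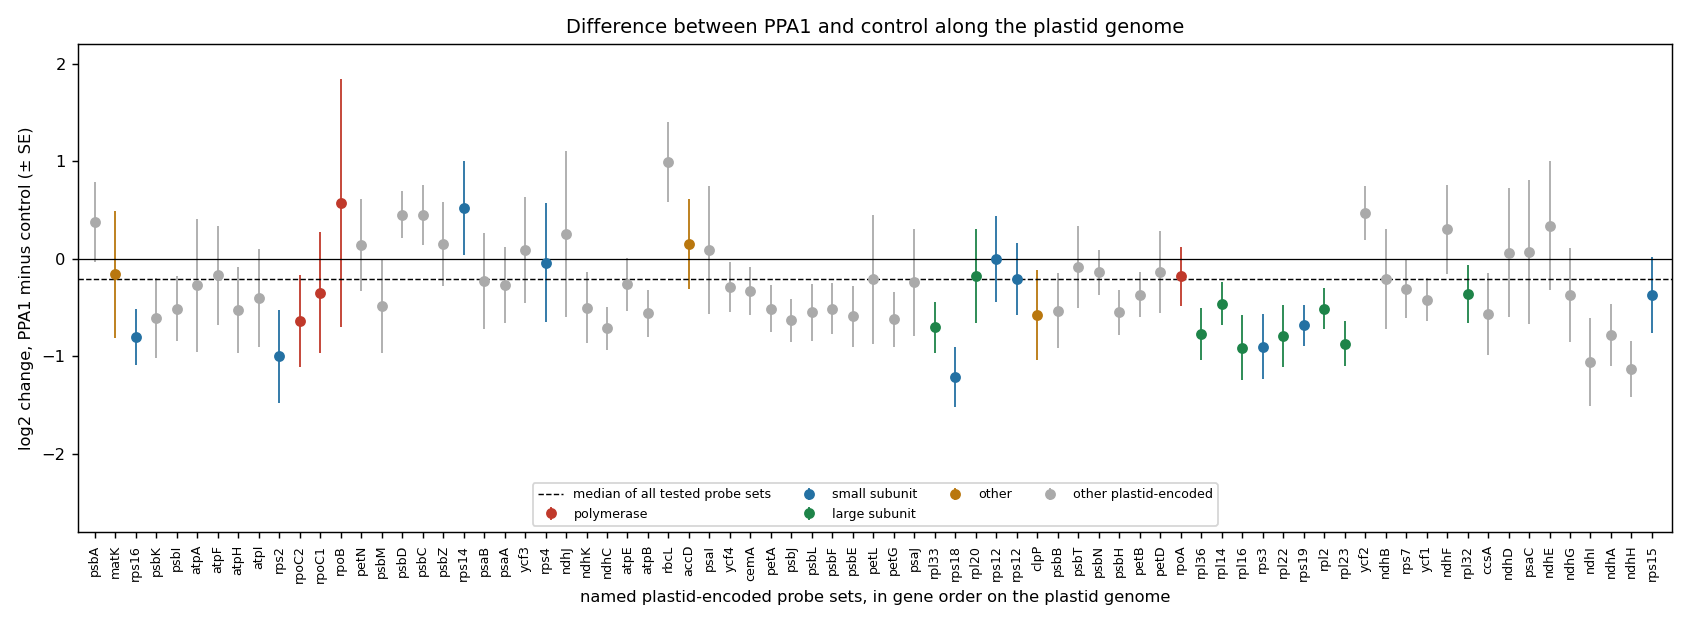
Log2 change, PPA1 minus control, with its standard error (vertical axis) of the named plastid-encoded probe sets in gene order on the plastid genome (horizontal axis), members in the colours of their role and other plastid genes in grey. The dashed line at -0.21 is the median of all tested probe sets; the run from rpl36 to rpl23 lies below it at every gene, while rpoA lies at -0.18.

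A further run of neighbours goes from rpl33 over rps18, rpl20 and rps12 to clpP. Its gene rps18, for a small-subunit protein, had the largest difference of all members. The signals of rps18 were 242, 196 and 293 in controls, against 139, 74.8 and 107 after PPA1, so each PPA1 array was clearly below each control. Log2 means were 7.91 ± 0.29 and 6.70 ± 0.45 (SD, n = 3 each), and the log2 change was -1.21 (SE 0.31), or 2.32-fold lower (limma adjusted p = 0.105). With arrays centred on their medians its change was -1.00.

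Beside it, rpl33 encodes a large-subunit protein that tobacco plastids can do without under standard growth. Its signals were 971, 889 and 806 in controls, against 728, 428 and 520 after PPA1, without overlap as deposited. The log2 change was -0.70 (SE 0.26, limma adjusted p = 0.194), and after centring the groups overlapped.

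The following genes of this run differed less. For rpl20, a large-subunit gene, signals were 101, 55.7 and 44.1 in controls, against 95.7, 39.0 and 46.1 after PPA1 (log2 change -0.18). The gene rps12, whose mRNA is joined from separate transcripts, encodes a part of the decoding site in bacteria. Its probe set 244940_at gave 336, 225 and 262 in controls, against 359, 151 and 237 after PPA1 (log2 change -0.21). The other, 244939_at, gave 49.0, 18.7 and 29.3 in controls, against 42.4, 27.8 and 22.8 after PPA1 (log2 change 0.00). The groups of all 3 probe sets overlapped, with replicate 1 highest in both conditions. For clpP, the catalytic subunit of the Clp protease that the plastid encodes, the signals were 1210, 726 and 1147 in controls, against 1197, 409 and 622 after PPA1. PPA1 replicate 1 was at the control level and the other PPA1 arrays were below all controls, which gave a log2 change of -0.58 (SE 0.46, limma adjusted p = 0.483). The nuclear gene CLPP4, for a partner subunit of the same protease, had a log2 change of -0.17 (limma adjusted p = 0.639).

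The other polymerase genes, rpoB, rpoC1 and rpoC2, follow rps2 in another run. None of the 4 rpo probe sets had groups without overlap. For rpoC2, which encodes the beta'' subunit, the signals were 107, 58.4 and 84.6 in controls, against 86.1, 28.8 and 55.8 after PPA1. The log2 change was -0.64 (SE 0.47, limma adjusted p = 0.447). For rpoC1, the beta' subunit, they were 334, 145 and 151 in controls, against 318, 77.0 and 145 after PPA1. Both replicate 1 arrays stood well above the rest, and the log2 change of -0.35 was smaller than its SE of 0.62 (limma adjusted p = 0.761).

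The beta subunit gene rpoB was at the low end of the array, with signals of 17.3, 1.03 and 24.2 in controls, against 6.16, 14.6 and 15.8 after PPA1. It was the only member with a mean log2 signal under 4, and its log2 change of 0.57 had an SE of 1.27 (limma adjusted p = 0.813). Control replicate 2 decides this sign, since without it the change was -0.86. At the head of the run rps2, a small-subunit gene, had signals of 238, 110 and 225 in controls, against 156, 60.2 and 79.2 after PPA1. PPA1 replicate 1 lay above control replicate 2, and the log2 change of -1.00 had an SE of 0.48 (limma adjusted p = 0.278).

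The housekeeping genes outside these runs showed no separation. The gene accD encodes a subunit of the acetyl-CoA carboxylase that makes the building block of fatty acids. Its signals were 172, 89.3 and 135 in controls, against 249, 92.0 and 123 after PPA1, with full overlap. Its log2 change was 0.15 (SE 0.46, limma adjusted p = 0.869).

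The gene matK lies inside an intron of a tRNA gene and encodes a maturase that helps to splice plastid introns. Its signals were 956, 345 and 574 in controls, against 1003, 232 and 585 after PPA1. The order of the arrays by replicate number was the same in both conditions, and the log2 change was -0.16 (SE 0.65, limma adjusted p = 0.903). The small-subunit gene rps4, whose product starts the assembly of the subunit in bacteria, was alike, at 646, 223 and 347 in controls, against 694, 192 and 345 after PPA1 (log2 change -0.04, SE 0.61).

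Among the remaining ribosomal genes, rpl32 of the large subunit gave signals of 968, 672 and 619 in controls, against 683, 426 and 657 after PPA1 (log2 change -0.36). The small-subunit gene rps15 gave 123, 77.9 and 89.3 in controls, against 122, 61.0 and 53.5 after PPA1 (log2 change -0.37). In both, PPA1 replicate 1 lay inside the control range, so the groups overlapped. Further small-subunit genes, rps16 and rps14, were dim. The signals of rps16 were 25.0, 40.3 and 35.9 in controls, against 20.9, 22.4 and 14.7 after PPA1, without overlap and with a log2 change of -0.80 (SE 0.29, limma adjusted p = 0.185). Those of rps14 were 7.51 to 19.6 in controls and 14.4 to 29.5 after PPA1, with a log2 change of 0.52 (SE 0.48). In all, the log2 signal averaged 6 or more in 23 members and less in 5.

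By role, the 9 large-subunit probe sets had a median log2 change of -0.70 and 7 without overlap, all lower after PPA1 (77.8%, against 20.1% of all tested). The 10 small-subunit probe sets had a median of -0.53 and 4 without overlap (40.0%). With array medians set equal, 3 large-subunit and 2 small-subunit probe sets were without overlap (33.3% and 20.0%, against 12.9% of all tested). For the 4 polymerase probe sets the median was -0.26, and for clpP, accD and matK it was -0.16, with 0 without overlap in both. These medians describe few genes with shared transcripts, and differences between the roles were not tested.

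The 51 other plastid-encoded probe sets, mostly of photosynthesis genes, had a median log2 change of -0.29, and in 10 of them (19.6%) all PPA1 arrays lay below all controls. That count is close to the 20.1% of all tested probe sets, and the members' 46.4% is above it, but the difference between the 2 sets was not tested. At an unadjusted p under 0.05, 3 of the 51 were lower, and 0 passed after adjustment (limma). The medians were -0.25 for 26 probe sets of the photosystems and the cytochrome complex, -0.33 for 6 of the ATP synthase and -0.37 for 11 of the NDH complex. The gene rbcL, next to accD and coding for the large subunit of Rubisco, went the opposite way, from 187, 90.7 and 126 in controls to 399, 193 and 217 after PPA1. All 3 PPA1 arrays of rbcL lay above all controls, with a log2 change of 0.99 (SE 0.41, limma adjusted p = 0.225).

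The differences varied with the replicate. Compared by replicate number, PPA1 was lower than control in 24 of 28 members in replicate 1, in 24 in replicate 2 and in 23 in replicate 3. The same shares over all tested probe sets were 54.1%, 59.1% and 62.1%. The size differed, with median log2 differences of -0.32, -0.75 and -0.63 in replicates 1 to 3 (-0.07, -0.21 and -0.28 over all tested). For rpl23 the 3 differences were -0.56, -1.10 and -0.96, and for rps18 they were -0.80, -1.39 and -1.45. In all 13 members without overlap, the difference in replicate 1 was the smallest of the 3. The same share was not counted over all tested probe sets, whose median difference was also smallest in replicate 1. The 13 share the same arrays, so they are not independent.

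**Figure D3:**
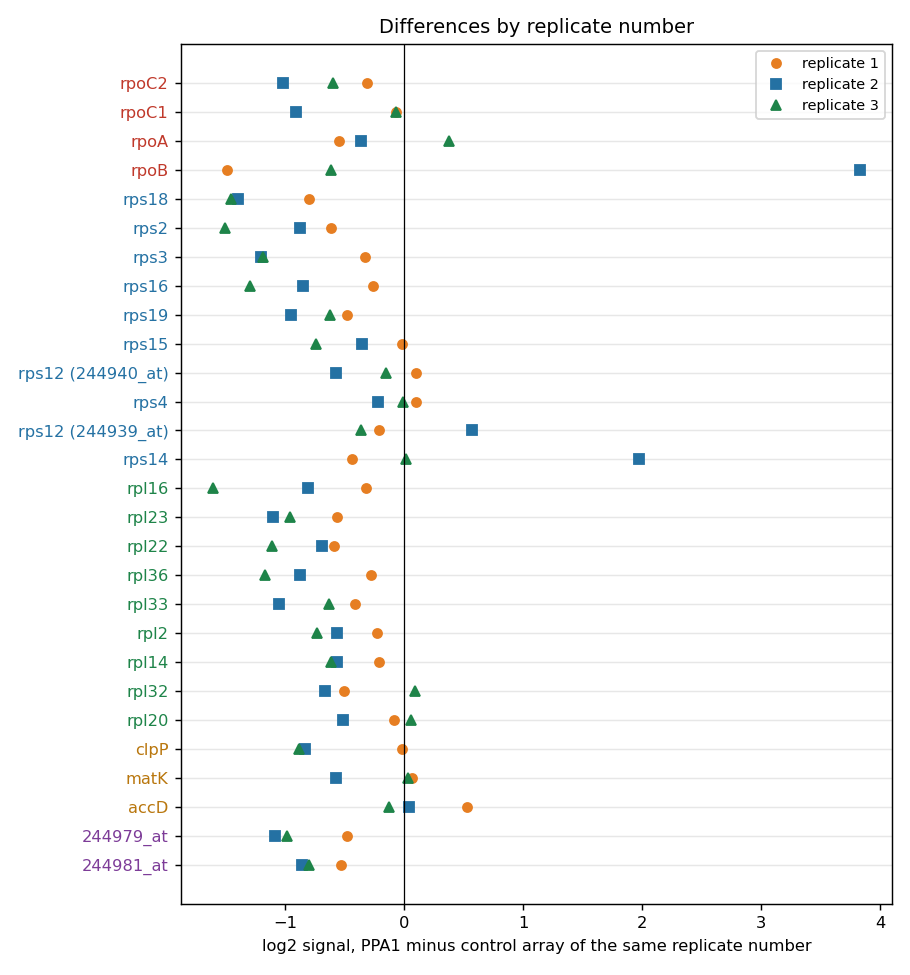
Difference in log2 signal between the PPA1 and the control array of the same replicate number (horizontal axis) for each of the 28 probe sets, with the mark and colour giving the replicate. In rps18 and rpl23 all 3 marks lie left of 0 with replicate 1 nearest to it, and in rps4 all 3 lie close to 0.

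Both replicate 1 arrays were above the other 4 arrays in 11 of 28 members (39.3%), against 8.31% of all tested probe sets. The 11 were rps15, both rps12 probe sets, rps4, rpl20, rpl32, rpoC1, rpoC2, clpP, accD and matK. None of the 9 genes from rpl23 to rpoA was among them, and 19 of the 51 other plastid-encoded probe sets (37.3%) were. On the same arrays the hybridisation spikes, 18 control probe sets for transcripts added before hybridisation, were lower. Their log2 signals averaged 8.28 (control) and 8.50 (PPA1) in replicate 1, whereas in replicates 2 and 3 they averaged between 8.91 and 9.26. The part of this in the results was not tested. With replicate 1 against the rest as a block, 0 of 28 members passed (limma adjusted p of at least 0.105, with 0.717% of all tested called lower). With replicates 2 and 3 alone 0 passed (at least 0.0868, against 2.81% called lower), with a median log2 change of -0.71.

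**Figure D4:**
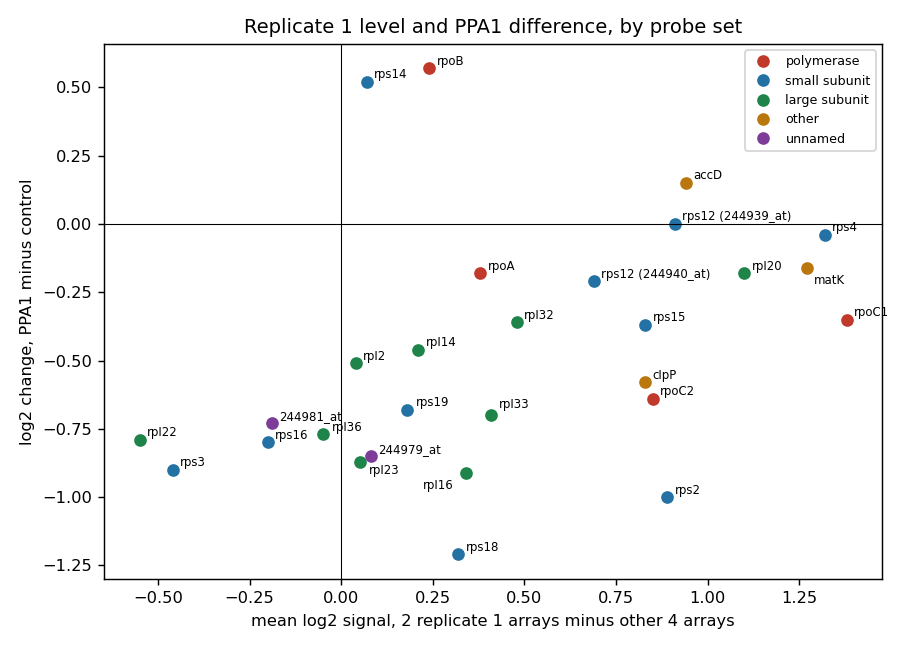
Log2 change, PPA1 minus control (vertical axis), against the mean log2 signal of the 2 replicate 1 arrays minus that of the other 4 arrays (horizontal axis), 1 point per probe set in the colour of its role. The points share the same 6 arrays; rps4, matK and rpoC1 stand at the right with 1.27 to 1.38, and the genes from rpl23 to rpl36 lie between -0.55 and 0.34.

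The count of calls depended on the variance model and on the scaling. Fitted only with probe sets that averaged at least 4 in log2 signal, limma called 4 of 27 members lower and 0 higher (8.79% of all fitted were called lower). These 4 were rps18 (adjusted p = 0.0373), rpl23 (0.0377), 244979_at (0.0403) and 244981_at (0.0430). The same 4 were called with a robust variance trend, against 5.15% of all tested. They were joined by rps19 with a limit of at least 6 (5 of 23, against 10.3%) and with 32 added before taking log2 (5 of 28, against 5.93%). Array weights, which give less weight to arrays far from the fitted values, gave 8 of 28 (28.6%, against 14.6%), adding rpl33, rpl36 and rpl16. With each array centred on its median no member passed under any of the 3 fits tried (lowest adjusted p 0.0585). Of all probe sets 0.677% were called lower with centring alone, 3.20% with the robust variance trend and 5.25% with the limit of at least 4.

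PPA1 replicate 1 bore most on these counts. Without it limma called 2 members lower, rps18 and 244979_at (7.14%, against 7.51% of all tested), and with the robust variance trend 12 (42.9%, against 14.8%). Without control replicate 1 the trend called 1, rps3 (against 2.12%). Without any other single array 0 were called with or without the trend. Few calls were made there at all: 0.0% of all tested were called lower without the trend, and 0.475% to 2.1% with it. Joined to the replicate number as a block, the trend called 3 of 28 (rps18, rpl23 and 244979_at, against 4.82%), and the limit of at least 4 called rps18 alone (against 6.38%).

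**Figure D5:**
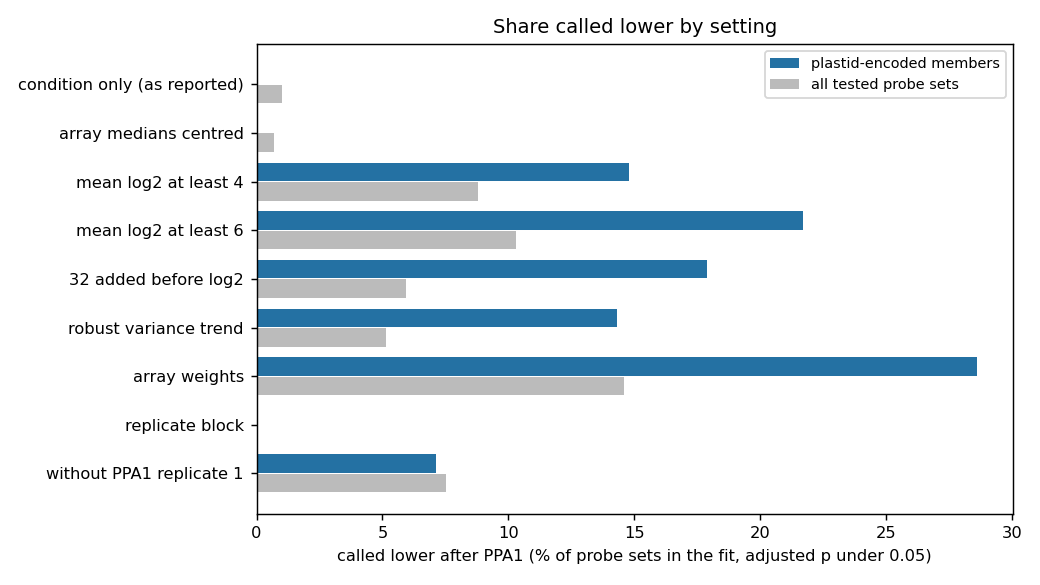
Share called lower after PPA1 (horizontal axis, percent of the probe sets in the fit at an adjusted p under 0.05) among the 28 members, in blue, and among all tested probe sets, in grey, for the fit reported here and 8 alternatives. The blue bar is empty for the reported fit, the centred arrays and the replicate block, and is longer than the grey one under 5 alternatives, while without PPA1 replicate 1 it is not.

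Expression of green-cell genes was looked at through nuclear genes that the table names, chosen after those names were seen. Signals of RCA, the activator of Rubisco, were 830, 730 and 1182 in controls, against 1291, 945 and 1196 after PPA1 (log2 change 0.34, limma adjusted p = 0.481). Those of LHCB4.1, for a light-harvesting protein of photosystem II, were 1664, 1319 and 1873 in controls, against 1751, 904 and 1123 after PPA1 (log2 change -0.40, limma adjusted p = 0.479). Its relative LHCB4.2 gave 636, 971 and 2188 in controls, against 1012, 343 and 426 after PPA1 (log2 change -1.06, limma adjusted p = 0.347). The groups of all 3 genes overlapped, with 1 mean higher and 2 lower after PPA1, and their part in the members' results was not tested. No probe set was found for the listed markers of green, seed and pollen cells, the sigma factors, the phage-type polymerases or the polymerase-associated proteins. The same held for the nuclear plastid ribosomal proteins and the nuclear carboxylase subunits. The search went by gene symbols and synonyms, over probe sets listed with 1 gene entry. Probe sets shared by several genes were left out, and the genes above were not analysed here.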

How the data were processed

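RNA of 6 samples, 3 per condition, was measured on Affymetrix ATH1 arrays. The authors deposited 1 normalized intensity per probe set and array, on a linear scale. Per the submitters' processing notes GCRMA was used. The version and other steps are not given in these sources. GCRMA subtracts a background modelled from probe sequence, so low signals spread widely once logged. The number of arrays limits the precision.

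Intensities were taken to log2 without a constant, and 64 control rows were set aside. A limma 3.58.1 model (lmFit, eBayes, R 4.3.3) of condition alone covered the other 22746 probe sets. Its two-sided p-values were adjusted over all of these (Benjamini-Hochberg) and called under 0.05. The fit was also run on simulated data. Its recovery there is not given here, so that run says nothing on the power for changes of the members' size. Figures were drawn with matplotlib 3.10.9.

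Genes were named through GEO's platform annotation, which gives 13513 tested probe sets 1 symbol, 503 several and 8730 none, and gene order came from RefSeq (TAIR10.1). Members, lists and alternatives were chosen with earlier results of these data known. The planned groups of members were by role, and the runs of neighbouring genes were not among them. Array values are given for members that did not overlap between groups and averaged 6 or more in log2 signal, and for the rpo, clpP, accD and matK genes by rule; those of the other members and of rbcL were added after their values were seen.

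Alternatives varied scaling, limits on dim probe sets, an added constant, the variance model, array weights, blocks and left-out arrays. Alternatives that join centring to another choice, and replicate 1 as a block, were chosen after seeing the data.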

Additional observations from a re-analysis of the deposited data

How the results depend on the processing

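Over 26 alternatives 19 members kept their direction. Single alternatives called up to 14.8% of all tested probe sets lower, and a share over all alternatives was not counted for them. Of the members, 13 were called lower in at least 1. The count called lower was 0 as reported, 4 with mean log2 at least 4 or the robust variance trend, 5 with at least 6 or with 32 added, and 8 with array weights; leaving out 1 array gave 0 to 12. No member was called higher. The replicate block alone called 0 (limma adjusted p of at least 0.166), 3 with the trend and 1 with mean log2 at least 4. Alone it also ended the calls of all 410 probe sets called in either direction as reported. Members without overlap were 7 after centring and 12 after quantile normalization, in place of 13. Directions changed only where the change was small or dim. Centring gave 0.01 for rps12 (244940_at), 0.04 for rpl20 and rpoA, 0.17 for rps4 and 0.05 for matK, and quantile normalization gave 0.01 for rpl20. With 32 added, rps12 (244939_at) was at -0.02 and rpoB at -0.03, and with replicates 2 and 3 alone rpoA was at 0.01 and accD at -0.04. Leaving out 1 array gave -0.34 to 0.35 and -0.51 to 0.11 for the rps12 probe sets, -0.57 to 0.17 for rpl20, -0.45 to 0.04 for rpoA, -0.88 to 0.14 for rpoC1, -0.86 to 1.41 for rpoB, -0.52 to 0.41 for rps4, -0.26 to 0.46 for accD and -0.64 to 0.41 for matK. The trend leaves these values as they are: without PPA1 replicate 1 rps12 (244939_at) was at -0.25, without PPA1 replicate 2 rpl20 at 0.08, without control replicate 1 rps4 at 0.36 and matK at 0.21, and without control replicate 2 accD at -0.11. Equal replicate numbers were not taken as pairs, since the labels name no pairing. Deviations from the group means of arrays with the same number correlated with r = 0.0645, 0.0325 and 0.0247 over all tested probe sets. Over those averaging 6 or more, r was 0.164, 0.239 and 0.154. In 39.3% of members both replicate 1 arrays were above the other 4, against 8.31% of all tested. The cause was not tested.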
